A study of Rattus norvegicus with 18 samples.

Results

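Neurotrophins and tissue repair growth factors were followed as a set of 9 genes, chosen by symbol, out of 30735 genes in the count table. The set held the ligands Bdnf, Ntf3, Gdnf, Igf1, Hbegf and Areg, the neurotrophin-induced peptide precursor Vgf, and the receptors Ntrk2 and Ngfr. Cortical RNA came from adult Sprague Dawley rats, 1 library per rat, in 3 groups of 6. Rats of the SAH 1d and SAH 7d groups received a subarachnoid hemorrhage (SAH) by perforating an intracranial artery with a filament, and were sampled at 1 or 7 days. Rats of the sham group had the same operation without the perforation, so all 18 rats shared the anesthesia and the carotid surgery. The day on which sham rats were sampled was not given, so time since the operation may differ between sham and either SAH group. In comparisons with sham, such a difference cannot be told apart from the hemorrhage. No rat was left unoperated, so effects of the operation itself cannot be told apart from the sham level. The study's methods describe the whole cortex of the operated side, whereas the sample labels describe cortex of both sides and name mice. Rat gene identifiers were used throughout the table, and the sex of the rats was not stated.

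Neurotrophins are secreted as precursors, cut to mature ligands, and bound by Trk receptor kinases and by the p75 receptor. BDNF is released by active neurons and acts through TrkB, and its gene and Vgf are textbook targets of the transcription factor CREB. HB-EGF and amphiregulin are made as membrane-bound precursors, shed by the protease ADAM17, and bound by the EGF receptor. GDNF signals through GFRα co-receptors and the kinase RET. IGF-1 acts through the IGF-1 receptor and is made in the brain by neurons, microglia and cells of the meninges and vessels.

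Promoter windows of Bdnf and Vgf are shown because both genes are textbook CREB targets and their levels spread in the same libraries, as described further on. A window ran from 250 bases before to 50 bases after an annotated start, taken from RefSeq for the rat assembly GRCr8, which is not the assembly the counts were made on. Windows were found for 7 of the 9 members, 14 windows in all, and Ntrk2 and Ngfr had none. Capitals mark the cAMP response element TGACGTCA, its half-site CGTCA, or the letters TGANTCA of an AP-1 site. Each was searched on both strands, where the half-site reads TGACG on the reverse one. The full element contains the half-site on each strand.
Vgf, chr12:25276971-25277270, minus strand: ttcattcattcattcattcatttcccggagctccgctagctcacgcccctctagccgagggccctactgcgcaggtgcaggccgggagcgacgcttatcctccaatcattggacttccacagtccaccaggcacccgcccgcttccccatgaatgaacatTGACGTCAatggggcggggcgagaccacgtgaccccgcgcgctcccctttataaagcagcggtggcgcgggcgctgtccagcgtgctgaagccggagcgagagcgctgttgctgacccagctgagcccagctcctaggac
Bdnf, start 4 of 6, chr3:116637608-116637907, plus strand: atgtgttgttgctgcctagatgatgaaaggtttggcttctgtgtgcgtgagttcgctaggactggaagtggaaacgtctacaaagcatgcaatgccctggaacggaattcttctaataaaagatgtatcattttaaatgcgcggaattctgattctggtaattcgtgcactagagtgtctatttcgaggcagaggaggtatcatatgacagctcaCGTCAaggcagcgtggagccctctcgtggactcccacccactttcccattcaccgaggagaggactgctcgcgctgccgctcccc
Bdnf, start 3 of 6, chr3:116621721-116622020, plus strand: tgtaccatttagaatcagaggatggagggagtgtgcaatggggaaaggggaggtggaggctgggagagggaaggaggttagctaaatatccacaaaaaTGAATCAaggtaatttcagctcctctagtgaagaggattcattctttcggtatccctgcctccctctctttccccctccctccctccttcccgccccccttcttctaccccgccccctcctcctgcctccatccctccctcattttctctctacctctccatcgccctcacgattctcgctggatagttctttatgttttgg
The Vgf window held the full element from base -90 counted from the start. The Bdnf window at start 4 held a half-site from base -35, and that at start 3 held the AP-1 letters from base -152. The other 4 Bdnf windows held none of these letters. Among 33469 rat windows of the same length, 1.83% held the full element, 21.2% the half-site and 7.33% the AP-1 letters, so that the half-site is common. These shares are per window, whereas 6 windows were searched for Bdnf. The full element was also present in the Areg window, from base -91, and in no other member's window. Half-sites were also present in the Hbegf window, from base -193, and in the Gdnf window, from base -49. In all, 5 of the 14 windows held a half-site. A match in these letters is a description of the sequence and does not show a bound factor.

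Libraries held between 27270026 and 38271014 counts, and 18444 genes passed the filter on low counts. Values are given as CPM (counts scaled to a fixed library total) on library sizes scaled by trimmed mean of M values. The libraries SAH 7d-5 and SAH 1d-3 stood apart from their groups. SAH 1d-3 held the highest value of its group for 33.1% of the tested genes and the lowest for 35.4%. SAH 7d-5 held the highest for 38.7% and the lowest for 36.8%. Of the 7 members tested, 6 were highest of their group in SAH 1d-3 and the remaining gene, Ntrk2, was lowest there. Values without these libraries are given beside the results that rest on them. Markers of neurons, summed over 7 genes, ranged from 6227 to 9819.9 CPM in sham and from 5033 to 6172 CPM in SAH 1d without overlap, and 6 of the 7 fell. The summed astrocyte markers ranged from 1793 to 3299.6 CPM in sham and from 4186 to 5288 CPM in SAH 1d, where 1 of 6 rose and 1 fell. Over all genes tested, 14.9% rose and 10.5% fell at 1 day. The part of these marker shifts in the results below was not tested.

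At 1 day, 1 of the 7 members tested differed from sham, and it was higher (edgeR quasi-likelihood test, Benjamini-Hochberg adjusted p under 0.05 over all genes). Among all genes tested, 25.4% differed at that threshold, 14.9% as higher and 10.5% as lower. No member passed in SAH 7d versus sham, and edgeR called 0 of 18444 genes (0%), with 2842 genes (15.4%) at an unadjusted p under 0.05. DESeq2 called 459 genes (2.49%) in that comparison and limma with voom quality weights called 2 (0.0108%), none of them a member, although DESeq2 gave no p for Igf1. Between the SAH groups, 1 of the 7 members differed, and it was lower. Among all genes, 1.37% differed between these groups and 1.08% were lower. The gene that passed in both comparisons was Hbegf. Gdnf and Areg failed the filter on low counts and were tested separately. These p-values measure the spread between rats, and each group serves in 2 of the 3 comparisons.

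**Figure D1:**
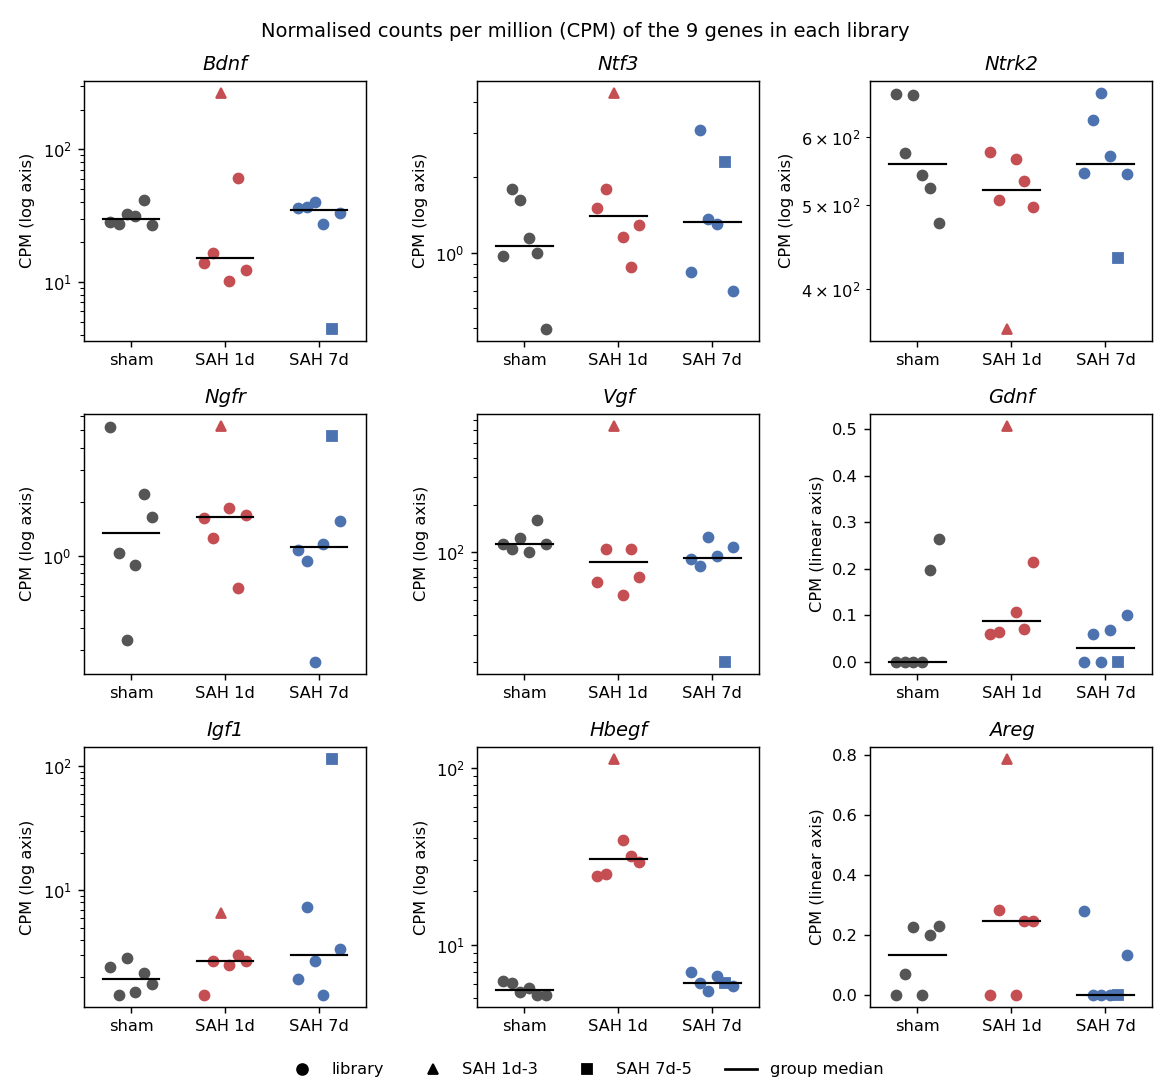
Normalized CPM of the 9 genes in each of the 18 libraries by group, on log axes except for Gdnf and Areg, with the group median as a line, SAH 1d-3 as a triangle and SAH 7d-5 as a square. Hbegf lay between 24.4 and 111.8 CPM in SAH 1d and between 5.22 and 7.00 CPM elsewhere, whereas Bdnf and Vgf spread both above and below the sham libraries.

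Hbegf, which encodes heparin-binding EGF-like growth factor, rose at 1 day and overlapped the sham range at 7 days. In sham it ranged from 5.22 to 6.23 CPM, with a median of 5.55 CPM. In SAH 1d it ranged from 24.4 to 111.8 CPM, with a median of 30.6 CPM. In SAH 7d it ranged from 5.49 to 7.00 CPM, with a median of 6.12 CPM. All 6 SAH 1d libraries lay above all libraries of the other groups, and SAH 1d-3 was the highest, while the other 5 lay within 24.4 to 39.2 CPM. The log2 fold change of SAH 1d versus sham was 2.95 (SE 0.36), a 7.74-fold higher level, with an edgeR adjusted p of 0.00018. Groups that did not overlap, with SAH 1d higher, were found for 7.89% of all genes tested. Without SAH 1d-3 the log2 fold change was 2.41, with an edgeR adjusted p of 1.43e-07. From 1 to 7 days Hbegf fell by 2.82 on the log2 scale (SE 0.37), a 7.04-fold lower level, with an edgeR adjusted p of 0.00272. All 6 SAH 7d libraries lay below all SAH 1d libraries, a separation found for 2.11% of genes. Against sham, SAH 7d had a log2 fold change of 0.14 (SE 0.10, edgeR adjusted p = 0.481), and the groups overlapped. In a bulk tissue, a change in the share of cells of a type and a change in RNA per cell cannot be told apart.

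Areg, the gene of amphiregulin and a relative of Hbegf, was near the limit of detection. Its counts reached 31 at most, in SAH 1d-3, and it was at 0 in 2 sham, 2 SAH 1d and 4 SAH 7d libraries. The mean was 0.121 ± 0.111 CPM (SD, n = 6) in sham, 0.260 ± 0.287 CPM in SAH 1d and 0.0687 ± 0.116 CPM in SAH 7d. The groups overlapped in every comparison. Exact two-sided permutation tests gave p = 0.292 for SAH 1d versus sham, 0.416 for SAH 7d versus sham and 0.165 for SAH 7d versus SAH 1d. Adjusted over the 6 such tests of Areg and Gdnf, these were 0.499, 0.499 and 0.494.

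Genes that act with Hbegf and Areg rose or did not pass at 1 day. Of 15 EGF family partners tested, 6 rose and 0 fell in SAH 1d versus sham, with a median log2 fold change of 0.31. Over all genes tested the median was 0.01, and 14.9% rose and 10.5% fell. Rhbdf2, which encodes the iRhom2 protein that brings ADAM17 to the cell surface, ranged from 0.629 to 1.44 CPM in sham and from 2.94 to 16.4 CPM in SAH 1d. Its log2 fold change was 2.74 (edgeR adjusted p = 0.000802). In SAH 7d all 6 libraries of Rhbdf2 lay above all sham libraries, a separation found for 0.797% of genes, with the highest, 27.3 CPM, in SAH 7d-5. That log2 fold change of 2.94 did not pass (edgeR adjusted p = 0.214). Without SAH 7d-5 it was 1.85 and did not pass either (edgeR adjusted p = 0.111). Btc, the ligand betacellulin, rose by a log2 fold change of 1.33 (edgeR adjusted p = 0.00755), from a median of 1.05 CPM to 2.89 CPM. Egfr, the receptor of both ligands, rose by 0.79 on the log2 scale (edgeR adjusted p = 0.0154), and all 6 SAH 1d libraries lay above all sham libraries. Adam17, the shedding protease, rose by 0.66 on the log2 scale (edgeR adjusted p = 0.0197), a call lost when all 18 libraries shared a fit (edgeR adjusted p = 0.224). The sister ligands Tgfa and Egf, with log2 fold changes of -0.16 and 0.06, did not pass, nor did the neuregulin receptor Erbb4, with -0.33. Ereg, the gene of epiregulin, failed the filter and was at 0 in every sham and SAH 7d library, while its highest SAH 1d value, 1.34 CPM, was in SAH 1d-3. From 1 to 7 days Btc fell by 1.82 on the log2 scale (edgeR adjusted p = 0.00141), to between 0.685 and 0.966 CPM. Of the 9 genes that feed back on the ERK kinase cascade, which growth factor receptors activate, 3 rose and 0 fell at 1 day, with a median log2 fold change of 0.39. These were the receptor-kinase inhibitor gene Spry4, with a log2 fold change of 0.94 (edgeR adjusted p = 0.00362), Spred3, with 0.66 (0.0236), and the ERK phosphatase gene Dusp5, with 1.85 (0.0274). All 9 had their highest SAH 1d value in SAH 1d-3, the highest library of its group for 33.1% of all tested genes. The Dusp5 call was lost without sham-2, sham-3 or sham-4 (edgeR adjusted p up to 0.0573). It was also lost with the replicate number as a block (edgeR adjusted p = 0.15), by limma voom (0.13) and by limma on FPKM (up to 0.113), and without SAH 1d-3 the Dusp5 log2 fold change was 1.00 (edgeR adjusted p = 0.0437). The Spred3 call was lost when all 18 libraries shared a fit (edgeR adjusted p = 0.0531). Leaving out sham-3 or sham-4 also took the calls over all lists of partner genes from 30 to 19.

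**Figure D2:**
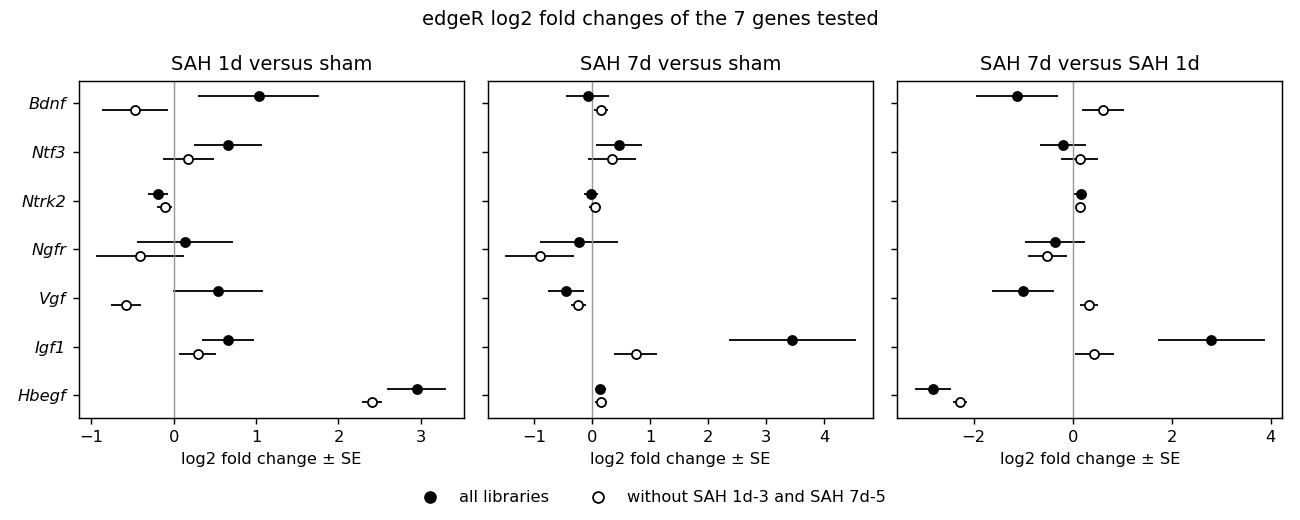
edgeR log2 fold changes with their SE for the 7 genes tested in 3 comparisons, filled for all libraries and open without those that stood apart, SAH 7d-5 and SAH 1d-3. Hbegf kept a value of 2.41 against sham at 1 day, while Bdnf moved from 1.03 to -0.47 and Vgf from 0.54 to -0.58.

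Bdnf, the gene of brain-derived neurotrophic factor, did not pass in any comparison and spread widely at 1 day. In sham it ranged from 26.9 to 41.4 CPM, with a median of 29.7 CPM. In SAH 1d it ranged from 10.1 to 267.4 CPM, with a median of 15.2 CPM. In SAH 7d it ranged from 4.42 to 39.8 CPM, with a median of 34.7 CPM. Of the 6 SAH 1d libraries, 4 lay below every sham library, at 10.1 to 16.6 CPM, and 2 lay above every sham library, SAH 1d-3 at 267.4 CPM and SAH 1d-5 at 60.5 CPM. SAH 7d-5 held the lowest value of all 18 libraries, 8.19-fold below the median of the other SAH 7d libraries, which lay between 27.2 and 39.8 CPM. The log2 fold change of SAH 1d versus sham was 1.03 (SE 0.73, edgeR adjusted p = 0.319), and without SAH 1d-3 it was -0.47 (edgeR adjusted p = 0.409). The sign of this difference was therefore set by SAH 1d-3. At 7 days the log2 fold change against sham was -0.08 (SE 0.37, edgeR adjusted p = 0.912). From 1 to 7 days it was -1.12 (SE 0.83, edgeR adjusted p = 0.575), and without both libraries it was 0.61.

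Vgf, which encodes a secreted neuronal peptide precursor induced by neurotrophins, spread in the same libraries. In sham it ranged from 100.4 to 160.6 CPM, with a median of 113.1 CPM. In SAH 1d it ranged from 53.9 to 638.1 CPM, with a median of 87.0 CPM. In SAH 7d it ranged from 20.1 to 125.9 CPM, with a median of 92.5 CPM. SAH 1d-3 was 9.21-fold above the median of the other SAH 1d libraries, of which 3 lay below every sham library. SAH 7d-5 was again the lowest of all 18, and 4 of the 6 SAH 7d libraries lay below every sham library. The log2 fold change of SAH 1d versus sham was 0.54 (SE 0.55, edgeR adjusted p = 0.488). Without SAH 1d-3 it was -0.58, with an edgeR adjusted p of 0.027, so the gene passed as lower only when that library was left out. Without it 13% of all genes passed as lower. Against sham, SAH 7d had a log2 fold change of -0.45 (SE 0.31, edgeR adjusted p = 0.461). From 1 to 7 days the level was 2.01-fold lower (SE 0.63 on the log2 scale, edgeR adjusted p = 0.496), and without both libraries the log2 fold change was 0.33.

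**Figure D3:**
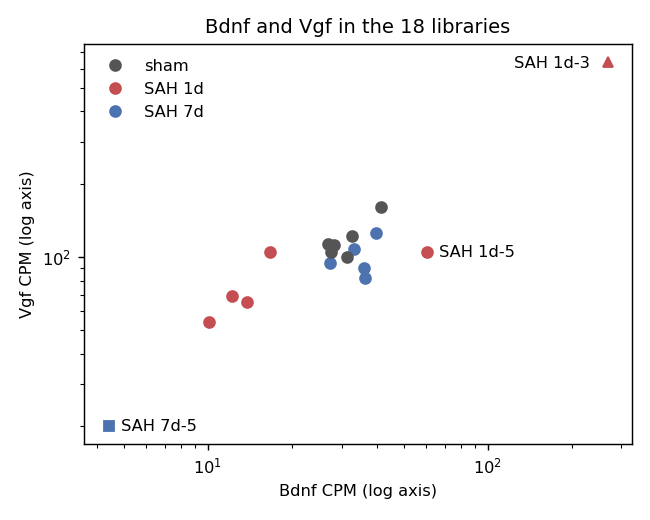
Bdnf against Vgf CPM in the 18 libraries on log axes, colored by group. SAH 1d-3 lay at the upper end of both genes (267.4 and 638.1 CPM) and SAH 7d-5 at the lower end (4.42 and 20.1 CPM), while SAH 1d-5 was high in Bdnf and at 105.1 CPM in Vgf.

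Bdnf and Vgf had a Spearman correlation of 0.701 over the 18 libraries, a description in which the libraries of a group share their condition. The genes closest to Bdnf over these libraries, out of 15344 searched, were Noct (Spearman 0.924), Scg2 (0.899) and Gpbp1 (0.858). Those closest to Vgf were Gng4 (0.872), Sema3a (0.866) and Dok5 (0.858). Scg2, the gene of the neuronal granule protein secretogranin II, was also on the list of activity-dependent genes.

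Activity-dependent genes, which neurons switch on when they fire, had their highest SAH 1d values in the 2 libraries where Bdnf was highest. A highest value within SAH 1d did not always lie above sham. For Homer1 no SAH 1d library lay above every sham library, and for Scg2, Nrn1 and Nr4a1 only 1 did. For the rest of the list, from 2 to 6 SAH 1d libraries did. Of 13 tested, 5 had their highest SAH 1d value in SAH 1d-3 and the other 8 in SAH 1d-5, libraries that were highest for 33.1% and 13.1% of all tested genes. In SAH 7d, 11 of the 13 were lowest in SAH 7d-5, the lowest library for 36.8% of all tested genes. Nptx2, the gene of a synaptic pentraxin, was at 1454.3 CPM in SAH 1d-3 and 278.3 CPM in SAH 1d-5, while the other 4 SAH 1d libraries lay at 48.5 to 69.2 CPM. Npas4, an activity-induced transcription factor gene, was at 117.7 CPM in SAH 1d-5, 28.3 CPM in SAH 1d-3 and 0.575 CPM in SAH 7d-5. The sham libraries of Npas4 lay between 4.76 and 12.0 CPM, below all 6 SAH 1d libraries. In SAH 1d versus sham 3 of the 13 rose and 1 fell, with a median log2 fold change of 0.71. Over all genes tested, 14.9% rose and 10.5% fell. Npas4 rose by 2.25 on the log2 scale (edgeR adjusted p = 0.00593). Fos rose by 2.03 (edgeR adjusted p = 0.0319) and Fosb by 2.34 (edgeR adjusted p = 0.0393), and both calls were lost without SAH 1d-3, at edgeR adjusted p of 0.0504 and 0.06. They were also lost without SAH 1d-5 (edgeR adjusted p = 0.0838 and 0.116) and without each sham library but sham-1. Homer1, a synaptic scaffold gene, fell by 0.47 on the log2 scale (edgeR adjusted p = 0.0427), a call lost in 12 of its 23 alternative fits, 7 of which left out a library (sham-3, sham-4, sham-6, SAH 1d-1, SAH 1d-2, SAH 1d-4 or SAH 1d-6; edgeR adjusted p up to 0.0978). SAH 7d-5 also had the lowest summed neuron markers, 2354 CPM, against a SAH 7d median of 8089 CPM, whose part in its low Bdnf and Vgf was not tested.

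Ntf3, the gene of neurotrophin-3, was low and did not pass in any comparison. It ranged from 0.495 to 1.80 CPM in sham, from 0.873 to 4.36 CPM in SAH 1d and from 0.700 to 3.10 CPM in SAH 7d, with medians of 1.07, 1.40 and 1.33 CPM. The groups overlapped, and the highest value was again that of SAH 1d-3. Its log2 fold changes were 0.66 (SE 0.41, edgeR adjusted p = 0.249) for SAH 1d versus sham, 0.46 (0.40, 0.544) for SAH 7d versus sham and -0.20 (0.46, 0.884) for SAH 7d versus SAH 1d.

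Ntrk2, the gene of the BDNF receptor TrkB, was abundant and did not pass in any comparison. It ranged from 476.1 to 672.4 CPM in sham, from 359.2 to 575.5 CPM in SAH 1d and from 433.6 to 675.0 CPM in SAH 7d. SAH 7d-5 and SAH 1d-3 held the lowest value of their groups, and the groups overlapped. The log2 fold change was -0.19 (SE 0.12, edgeR adjusted p = 0.269) at 1 day, -0.02 (SE 0.12, edgeR adjusted p = 0.924) at 7 days, and 0.16 (SE 0.13, edgeR adjusted p = 0.618) between the SAH groups. Counts per gene do not separate full-length TrkB from the truncated receptor that astrocytes make. Ngfr, the gene of the p75 neurotrophin receptor, varied more within groups than between them. It ranged from 0.341 to 5.20 CPM in sham, from 0.664 to 5.30 CPM in SAH 1d and from 0.258 to 4.63 CPM in SAH 7d. Its highest values were in sham-1, SAH 1d-3 and SAH 7d-5, and its log2 fold changes were 0.14 (SE 0.58), -0.23 (SE 0.67) and -0.36 (SE 0.61), with edgeR adjusted p from 0.832 to 0.881. Without SAH 1d-3 the Ngfr difference of SAH 1d from sham was -0.41, and without SAH 7d-5 those of SAH 7d were -0.91 from sham and -1.06 from SAH 1d, none of which passed (edgeR adjusted p from 0.221 to 0.604).

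Of the 13 neurotrophin partners tested, 3 rose and 2 fell at 1 day, with a median log2 fold change of 0.08. Over all genes tested, 14.9% rose and 10.5% fell. Ntrk3, the receptor gene of neurotrophin-3, fell by 0.44 on the log2 scale (edgeR adjusted p = 0.00349), from 21.5 to 23.6 CPM in sham to 13.8 to 18.6 CPM in SAH 1d, without overlap. Sort1, the gene of the proneurotrophin co-receptor sortilin, fell by 0.71 (edgeR adjusted p = 0.00424), also without overlap, a separation downward found for 5.41% of genes. These genes fell beside the neuron markers given above, and the part of those markers was not tested. Plat, the gene of tissue plasminogen activator, which acts in the cleavage of proBDNF, rose by 1.00 (edgeR adjusted p = 0.0254), a call lost without sham-2, sham-4, sham-5 or sham-6 (up to 0.0573). Ntf4, the gene of the other TrkB ligand, rose by 1.80 (SE 0.58, edgeR adjusted p = 0.036) from a median of 0.266 CPM to 1.13 CPM, a call lost in 11 of its 20 alternative fits, 9 of which left out a library (all but sham-4, SAH 1d-3 and SAH 1d-5; edgeR adjusted p up to 0.0787). Unlike most members, Ntf4 was lowest of its group in SAH 1d-3, at 0.228 CPM. The choroid plexus markers also varied in SAH 1d, where 3 of 5 rose and their sum reached 730.4 CPM in SAH 1d-4 and 1054.8 CPM in SAH 1d-6, against at most 69.7 CPM in sham. Ntf4 was at 1.90 and 1.32 CPM in SAH 1d-4 and SAH 1d-6, its highest values. It was at 1.18 and 1.07 CPM in SAH 1d-1 and SAH 1d-2, where the choroid plexus sums were 42.5 and 22.5 CPM. SAH 1d-3 and SAH 1d-5, where Ntf4 was lowest in SAH 1d, had sums of 9.03 and 12.6 CPM. In sham-2, with the sum of 69.7 CPM, Ntf4 was at 0.104 CPM. The part of that tissue was not tested.

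Gdnf, the gene of glial cell line-derived neurotrophic factor, was near the limit of detection. Its counts reached 20 at most, in SAH 1d-3, and it was at 0 in 4 sham and 3 SAH 7d libraries but in none of the SAH 1d libraries. The mean was 0.0771 ± 0.121 CPM (SD, n = 6) in sham, 0.171 ± 0.175 CPM in SAH 1d and 0.0382 ± 0.0439 CPM in SAH 7d. Exact two-sided permutation tests gave p = 0.364 for SAH 1d versus sham, 0.5 for SAH 7d versus sham and 0.0346 for SAH 7d versus SAH 1d. The smallest of these was 0.208 after adjustment over the 6 tests. Its receptor kinase gene, Ret, rose at 1 day in every library, from 2.29 to 5.33 CPM in sham to 13.6 to 38.5 CPM in SAH 1d. The log2 fold change of Ret was 2.19 (SE 0.29), a 4.55-fold higher level, with an edgeR adjusted p of 0.000354, and without SAH 1d-3 it was 1.87. In SAH 7d Ret lay between 6.43 and 12.2 CPM, above all sham libraries, a separation found for 0.797% of genes, and below all SAH 1d libraries. That difference from sham had a log2 fold change of 1.04 and did not pass (edgeR adjusted p = 0.214), and that from SAH 1d, -1.15, did not pass either (edgeR adjusted p = 0.0625). Without both of the libraries that stood apart, the difference from SAH 1d was -0.79 and passed (edgeR adjusted p = 0.0117). Gfra2, the co-receptor gene of the sister ligand neurturin, fell by 0.83 on the log2 scale at 1 day (edgeR adjusted p = 0.014). In all, 1 of 7 GDNF family partners tested rose and 1 fell at 1 day, beside 14.9% and 10.5% of all genes tested. The co-receptor gene Gfra1 was not analysed here.

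Igf1, the gene of insulin-like growth factor 1, was low in most libraries and very high in SAH 7d-5. It ranged from 1.45 to 2.84 CPM in sham, with a median of 1.95 CPM. It ranged from 1.45 to 6.62 CPM in SAH 1d, with a median of 2.70 CPM. It ranged from 1.44 to 114.2 CPM in SAH 7d, with a median of 3.02 CPM. SAH 7d-5 was 42.7-fold above the median of the other SAH 7d libraries, the next being SAH 7d-2 at 7.37 CPM. The groups overlapped, with 3 SAH 7d libraries above every sham library and 1 below. The log2 fold change of SAH 7d versus sham was 3.45 (SE 1.09, edgeR adjusted p = 0.224), and without SAH 7d-5 it was 0.75 (edgeR adjusted p = 0.431). For SAH 1d versus sham it was 0.66 (SE 0.32, edgeR adjusted p = 0.145). For SAH 7d versus SAH 1d it was 2.80 (SE 1.08, edgeR adjusted p = 0.24), and without SAH 7d-5 it was 0.08. SAH 7d-5 and SAH 7d-2 also had the highest summed microglia markers, 2447 and 1013.5 CPM over 6 genes, against 259 to 455 CPM in sham. SAH 7d-6 came next in these markers at 779.6 CPM, with Igf1 at 3.37 CPM. SAH 1d-3, at 6.62 CPM of Igf1, had 318.8 CPM of them, within the sham range. The summed meningeal fibroblast markers reached 2137 CPM in SAH 7d-5 and at most 276 CPM in the other SAH 7d libraries. Its monocyte and macrophage markers summed to 193 CPM and its neutrophil markers to 131 CPM, the highest values of those lists. The part of these cells in the Igf1 level was not tested.

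**Figure D4:**
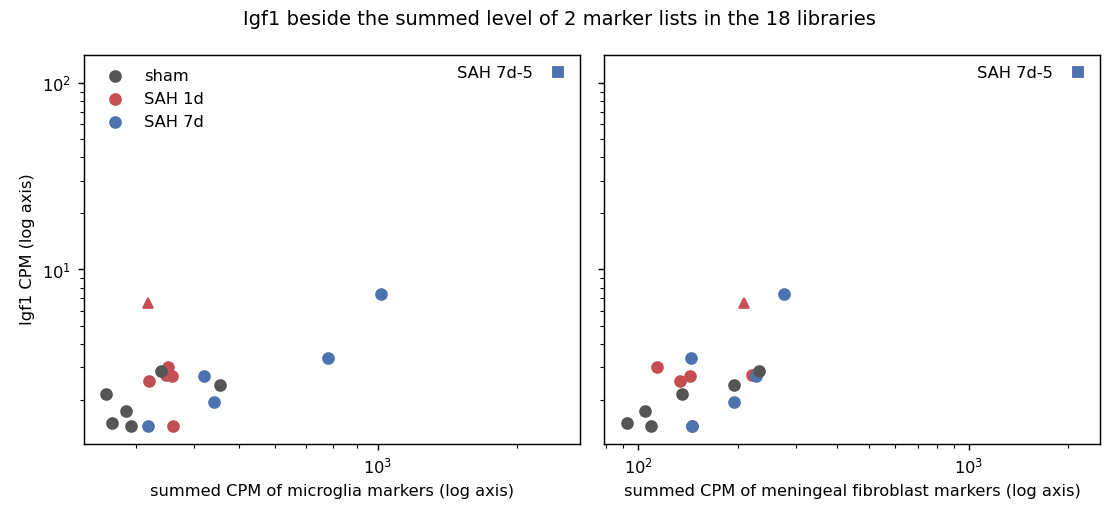
Igf1 CPM against the summed CPM of the microglia markers (left) and the meningeal fibroblast markers (right) in the 18 libraries, on log axes and colored by group. SAH 7d-5 stood alone at 114.2 CPM of Igf1, 2447 CPM of microglia markers and 2137 CPM of meningeal fibroblast markers.

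Of the 12 IGF partners tested, 2 rose and 0 fell at 1 day, with a median log2 fold change of 0.15. Over all genes tested, 14.9% rose and 10.5% fell. Insr, the insulin receptor gene, rose by 0.37 on the log2 scale (edgeR adjusted p = 0.00958), and Igf2r, the receptor gene that clears IGF-2, by 0.23 (edgeR adjusted p = 0.0276). The Igf2r call was lost without sham-2, sham-3, sham-4, sham-6 or SAH 1d-1 (edgeR adjusted p up to 0.0644), with the replicate number as a block, and when all 18 libraries shared a fit (0.521). Igf1r, the receptor gene of IGF-1, had a log2 fold change of 0.40 (edgeR adjusted p = 0.0995). Igf2, the gene of the sister ligand, had a log2 fold change of -0.22 at 1 day and 1.43 at 7 days (edgeR adjusted p = 0.26), with 924.2 CPM in SAH 7d-5, and without that library the 7-day value was 0.65 (edgeR adjusted p = 0.405). In SAH 7d 7 of the 12 partners were highest in SAH 7d-5, the highest library for 38.7% of all tested genes.

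Of 16 genes tested on the list of other repair growth factors, 7 rose and 1 fell at 1 day, with a median log2 fold change of 0.40. Over all genes tested, 14.9% rose and 10.5% fell. The list includes Met, a receptor gene and not a growth factor gene, which was among those that rose (log2 fold change 1.05, edgeR adjusted p = 0.0146). Grn, the gene of progranulin, rose by 0.89 on the log2 scale (edgeR adjusted p = 0.000197), from 47.0 to 61.8 CPM in sham to 81.4 to 131.4 CPM in SAH 1d. The Grn call was lost when all 18 libraries shared a fit (edgeR adjusted p = 0.292). Gdf15, a stress-induced cytokine gene, rose by 4.40 (edgeR adjusted p = 0.00147), from at most 0.173 CPM in sham, with 3 libraries at 0, to 0.664 to 4.31 CPM. Fgf2, the gene of basic fibroblast growth factor, rose by 1.50 (edgeR adjusted p = 0.00392), and at 7 days it was 1.21 lower than at 1 day on the log2 scale (edgeR adjusted p = 0.0155). Cntf, the gene of ciliary neurotrophic factor, rose by 0.70 (edgeR adjusted p = 0.00783). Over all 7 lists of partner genes, 25 of 85 rose and 5 fell at 1 day, and 0 passed in SAH 7d versus sham. In SAH 7d versus SAH 1d, where 1.37% of all genes passed, Btc and Fgf2 were the 2 partner genes that passed. Both of the latter calls were lost with the replicate number as a block (edgeR adjusted p = 0.0523 for Btc and 0.0641 for Fgf2).

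**Figure D5:**
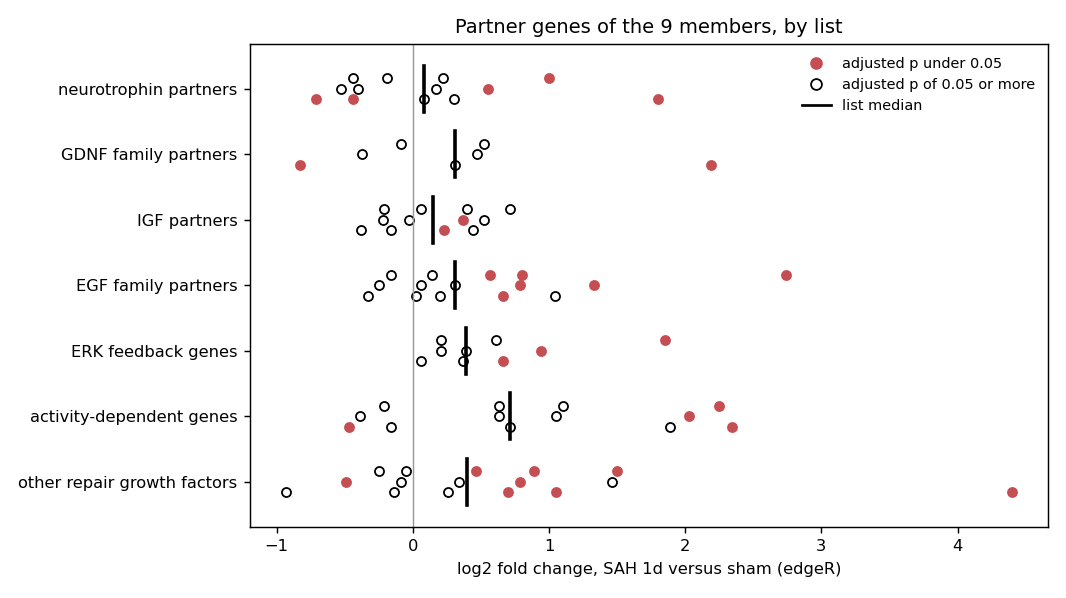
edgeR log2 fold changes of SAH 1d versus sham for the 85 partner genes tested, by list, filled where the adjusted p was under 0.05, with the list median as a line. The median of the activity-dependent genes was 0.71 and that of the neurotrophin partners 0.08, and Gdf15 lay farthest to the right at 4.40.

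On the FPKM scale, which divides by transcript length and allows levels of different genes to be compared, Ntrk2 was the most abundant member in each group. In sham its mean was 80.4 ± 9.16 FPKM (SD, n = 6), followed by Vgf at 42.1 ± 8.58, Bdnf at 7.22 ± 1.40, Hbegf at 2.27 ± 0.162 and Igf1 at 1.02 ± 0.285 FPKM, none of which overlapped its neighbor. Igf1, Ntf3 (0.777 FPKM), Ngfr (0.527), Gdnf (0.0961) and Areg (0.0952) overlapped their neighbors in that order. In SAH 1d the mean of Hbegf, 18.9 ± 14.3 FPKM, stood above that of Bdnf, 15.0 ± 23.6 FPKM, and every neighbor overlapped. Without SAH 1d-3 these means were 13.1 ± 2.37 and 5.58 ± 5.20 FPKM (SD, n = 5). In SAH 7d the mean of Igf1, 11.9 ± 25.0 FPKM, stood above Bdnf, and without SAH 7d-5 it was 1.74 ± 1.24 FPKM, below Hbegf at 2.59 ± 0.258 FPKM.

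The genes whose levels ran closest to the other members over the 18 libraries included Pitpnb (Spearman 0.907) and Des (0.901) for Hbegf, and Trpc6 (0.889), Btg2 (0.876) and Dnajc1 (0.868) for Igf1. For Ntrk2 they were Amot (0.895), Gstm1 (0.851) and Adcyap1r1 (0.851). For Ngfr they were Ace (0.868), Tnfaip3 (0.82) and Cyp2u1 (0.818), and for Ntf3 Ptger4 (0.886), Ccr1 (0.822) and LOC100360117 (0.8). These are descriptions over libraries that share their groups, and Bdnf stood nearer to Vgf than to Hbegf (-0.112), Igf1 (0.257) or its receptor gene Ntrk2 (0.121).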

How the data were processed

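Total RNA from 18 rat cortices was sequenced on an Illumina platform from libraries of a kit that does not mark strand. The authors deposited whole-number counts per gene and FPKM values, which scale fragments by transcript length and by mapped reads. Per the labels, the submitters' processing notes name fastp, HISAT2, DESeq2 1.16.1 and the build mm9, whereas the study's methods name the rat assembly Rnor_6.0 and the gene identifiers are rat Ensembl ones. The program that counted reads is not given in the sources used here. The count table held 30735 rows, of which 8685 were loci outside the annotation, and 0 columns could not be assigned to a sample. Depth was 27270026 to 38271014 counts per library.

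Genes were kept by edgeR's filterByExpr over the 3 groups (18444 genes), scaled by trimmed mean of M values, and tested with edgeR 4.0.16 quasi-likelihood fits (R 4.3.3) on the 12 libraries of each comparison, with p-values adjusted by Benjamini and Hochberg over all genes tested. Gdnf and Areg failed the filter and had exact permutation tests of CPM (scipy 1.17.1). Log2 CPM used a prior count of 2. The SE of an edgeR log2 fold change was derived as its absolute value divided by the square root of the F statistic. Alternatives were DESeq2 1.42.0, limma 3.58.1 with voom quality weights, another scaling, all 18 libraries in a shared fit, a replicate block, other filters, limma on log2(FPKM + 1) and log2(FPKM + 0.1), and leaving out libraries.

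The members, 7 partner lists, 14 marker lists and tests were chosen with earlier results of these data known. The 9 members were named throughout, with their sister ligands and receptors, and in each list up to 4 genes of smallest adjusted p among those under 0.05, then the 3 genes of highest Spearman correlation with each member. Some genes named by this rule are not reported here. Other partner genes were named after their values were seen (Ereg, Nptx2 and Scg2). Promoter letters came from RefSeq windows of GRCr8. In simulated counts for SAH 1d versus sham (18444 genes), edgeR recovered 93% of 4-fold and 72% of 2-fold changes with 13 false calls. For SAH 7d versus sham it recovered 85% and 61%, with 5 false calls. For SAH 7d versus SAH 1d it recovered 82% and 39%, with 4 false calls. No simulated library was made to stand apart as SAH 1d-3 and SAH 7d-5 did.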

Additional observations from a re-analysis of the deposited data

Results flagged for a closer look

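In 13 of the 27 pairs of a member and a group, the highest or lowest of the 6 libraries lay far from the rest, by Dixon's gap test at 95%, a threshold that chance passes in about 1 of 20 groups. Of these 13, 9 came from SAH 1d-3, 3 from SAH 7d-5 and 1 from sham-5. SAH 1d-3 was the highest of its group for 33.1% of all tested genes and the lowest for 35.4%. For SAH 7d-5 these shares were 38.7% and 36.8%. Pairs that share a library are not independent, and the share of all genes past this threshold was not computed. The count is therefore not a result particular to the members. In SAH 1d-3 the CPM values were 267.4 for Bdnf, 638.1 for Vgf, 111.8 for Hbegf, 6.62 for Igf1, 4.36 for Ntf3, 5.30 for Ngfr, 0.507 for Gdnf and 0.786 for Areg, each the highest of its group, and 359.2 for Ntrk2, the lowest. In SAH 7d-5 they were 114.2 for Igf1 and 4.63 for Ngfr, the highest, and 4.42 for Bdnf, the lowest. Vgf in sham-5 was the highest of the sham group at 160.6 CPM.

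The effects of SAH 1d and SAH 7d against sham differed for Hbegf. The difference, tested directly as SAH 7d versus SAH 1d, was -2.82 on the log2 scale.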

How the results depend on the processing

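Hbegf kept its direction and its call in SAH 1d versus sham and in SAH 7d versus SAH 1d under all 23 alternatives, with log2 fold changes of 2.38 to 3.07 and -2.94 to -2.25. In a comparison with sham, leaving out both libraries that stood apart is the same fit as leaving out the only one it holds. That fit is counted under both settings in the numbers of alternatives. Depth limits Gdnf and Areg, whose counts reached 20 and 31 at most. The cause of the changes below was not tested, except that leaving out a library acts through that library.

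For Bdnf in SAH 1d versus sham the sign turned with voom quality weights (-0.83), with log2(FPKM + 0.1) (-0.06) and without SAH 1d-3 (-0.47), as it did for Vgf with voom (-0.57) and without SAH 1d-3 (-0.58, a call), and for Ngfr without SAH 1d-3 (-0.41). The sign of Ngfr also turned there without sham-3 (-0.07) and, slightly, without sham-4. In SAH 7d versus sham the sign turned for Bdnf with voom (0.12) and without SAH 7d-5 (0.15), and for Ntrk2 with voom (0.06), without SAH 7d-5 (0.05) and in the 3 FPKM fits (0.01 each). In that comparison the sign also turned without sham-1 for Ngfr (0.40) and Ntrk2 (0.03), without sham-3 for Ntrk2 (0.02) and without sham-5 for Bdnf (0.02). Between the SAH groups it turned for Bdnf (0.93), Vgf (0.33) with voom, and without both libraries for Bdnf (0.61), Ntf3 (0.14) and Vgf (0.33). None of these passed but the named call of Vgf.

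Genes called in SAH 1d versus sham numbered 2462 with all 18 libraries in a shared fit, and partner genes 19. With both libraries left out, 2 members passed. In SAH 7d versus sham, DESeq2 called 459 genes and 5 partner genes, voom 2 genes and the shared fit 9. Between the SAH groups, genes called numbered 1012 with DESeq2, 2718 with voom, 779 in the shared fit, 406, 403 and 393 in the FPKM fits (pseudocount 1, pseudocount 0.1, and pseudocount 1 with no filter), and 2512 without both libraries. Partner genes called there numbered 11, 24, 7, 4, 4 and 20 with DESeq2, voom, the shared fit, the filtered FPKM fits and without both libraries. DESeq2 gave no adjusted p for Vgf in SAH 1d versus sham and SAH 7d versus SAH 1d, nor for Igf1 in either SAH 7d comparison. With log2(FPKM + 0.1) the median of all genes in SAH 1d versus sham moved to 0.109, the only shift over 0.1.

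Leaving out each library in turn gave 3517 to 5252 genes, 19 to 37 partner genes and 1 to 2 members in SAH 1d versus sham. It gave 0 to 3 genes, 0 partner genes and 0 members in SAH 7d versus sham, and 102 to 1545 genes, 2 to 11 partner genes and 1 member in SAH 7d versus SAH 1d. The 3 genes came without SAH 7d-4, the 1545 without SAH 7d-5 and the 102 without SAH 7d-2, while leaving out SAH 1d-3 gave 349. The members' log2 fold changes against sham at 1 day ranged from -0.47 to 1.25 for Bdnf, -0.58 to 0.73 for Vgf and -0.41 to 0.75 for Ngfr. At 7 days against sham they ranged from -0.18 to 0.15 for Bdnf, -0.08 to 0.05 for Ntrk2 and -0.91 to 0.40 for Ngfr. Between the SAH groups they ranged from -1.33 to 0.38 for Bdnf, -0.50 to 0.27 for Ntf3, -1.06 to 0.19 for Ngfr and -1.18 to 0.12 for Vgf.

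The study put rats into groups at random and named no pairing by replicate number. Most SAH libraries carry another number in their sample title than their replicate number, so the replicate block may be an arbitrary grouping. Correlations of same-numbered libraries ranged from -0.252 to 0.197, which alone cannot exclude a pairing. With the replicate block, SAH 7d versus SAH 1d had 29 genes and 0 partner genes called, Hbegf kept its call, and Bdnf turned to 0.08. In SAH 1d versus sham the block turned Bdnf to -0.28 and Vgf to -0.18, with no call. Of 18 same-numbered pairs over the comparisons, 2 had their best correlation with their own number.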
